A study of Capra hircus with 10 samples.

Results

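The family of miR-148 and miR-152 is a group of related microRNA (miRNA), short RNA that guide silencing proteins to messenger RNA by pairing through their seed, the bases 2 to 8 of the mature strand. Each precursor hairpin is cut into a 5p and a 3p strand, and for this family the 3p strand is the one usually studied as the guide. miR-148a is known as one of the most abundant miRNA of milk and of the lactating mammary epithelium, and DNMT1, which maintains DNA methylation, is a much studied target of the family. Here the family was taken as every row of the count tables whose name, without its species prefix, was miR-148a, miR-148b or miR-152 on either arm. This gave 4 of the 1804 miRNA listed, namely miR-148a-3p, miR-148a-5p, miR-148b-3p and miR-148b-5p. No row bore the name miR-152, so that miRNA was not analysed here.

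Small RNA was sequenced from the mammary gland of 10 goats of the Alpine breed in peak lactation, 48 ± 2 days after kidding. All goats had received the same hay-based ration, 35% forage and 65% concentrate, over 2 weeks of adaptation. In the last 48 h before slaughter, 4 goats stayed on free access to this ration (Control, libraries L01, L04, L06 and L10) and 6 goats had no food but kept their water (FD, libraries L02, L03 and L05 and from L07 to L09). Each library is 1 goat, from whole tissue, so fewer cells of a type and less RNA per cell cannot be told apart. The Control libraries held 4495512 to 7506955 miRNA counts and the FD libraries 5674119 to 9842009, the last being L08.

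The mature strands as listed in the deposited files are shown because the arms of the 2 precursors are almost the same on one side and not on the other, with the seed in capitals and the rest in lower case, from 5′ to 3′ and with T in place of U:
miR-148a-3p: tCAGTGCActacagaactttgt
miR-148b-3p: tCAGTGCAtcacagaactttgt
miR-148a-5p: aAAGTTCTgagacactccgact
miR-148b-5p: gAAGTTCTgttatacactcaggc

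Both 3p strands were 22 bases long, shared the seed CAGTGCA and were the same at 20 of 22 positions. Counted from the 5′ end, and with the miR-148a base first, they differed by C9T and T10C, just behind the seed. The 5p strands shared another seed, AAGTTCT, but were the same at only 13 of the first 22 positions, and miR-148b-5p was 1 base longer with 23. Each seed was carried at bases 2 to 8 by 2 of the 1804 listed miRNA, the family members themselves. The letters of the 3p seed also stood 1 base nearer the 5′ end in 4 listed miRNA, namely miR-130a-3p, miR-130b-3p, miR-301a-3p and miR-301b-3p, and anywhere in the strand in 14. Of 1070 precursors that the authors predicted from the reads, 0 carried either seed. In the RefSeq annotation of the assembly ARS1.2, which is a later build than that of the files and was used for names alone, MIR148A lies within the long non-coding RNA LOC108635844 and between the protein genes NPVF and NFE2L3. MIR148B lies within COPZ1, a gene of the coatomer of transport vesicles, and between GPR84 and NFE2.

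miR-148a-3p was the most abundant miRNA of the lactating gland over the 10 libraries. It took 19.3%, 19.6%, 21.9% and 21.2% of all miRNA counts in L01, L04, L06 and L10 of the Control goats. In the FD goats it took 21.7% in L02, 17.7% in L03, 13.7% in L05, 20.9% in L07, 10.6% in L08 and 16.996% in L09. Its counting error was small beside these differences: the 95% Clopper-Pearson interval of the lowest share, in L08, ran from 10.617% to 10.655%. Such intervals cover counting error only, since the reads carried no molecular identifiers. miR-148a-3p stood first in 8 libraries, all 4 Control among them, and at rank 3 in L05 and L08. In those 2 libraries it was passed by miR-143-3p, an miRNA of smooth muscle and fibroblasts, at 16.4% and 13.4%, and by miR-10b-5p, at 14.10% and 14.05%.

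**Figure D1:**
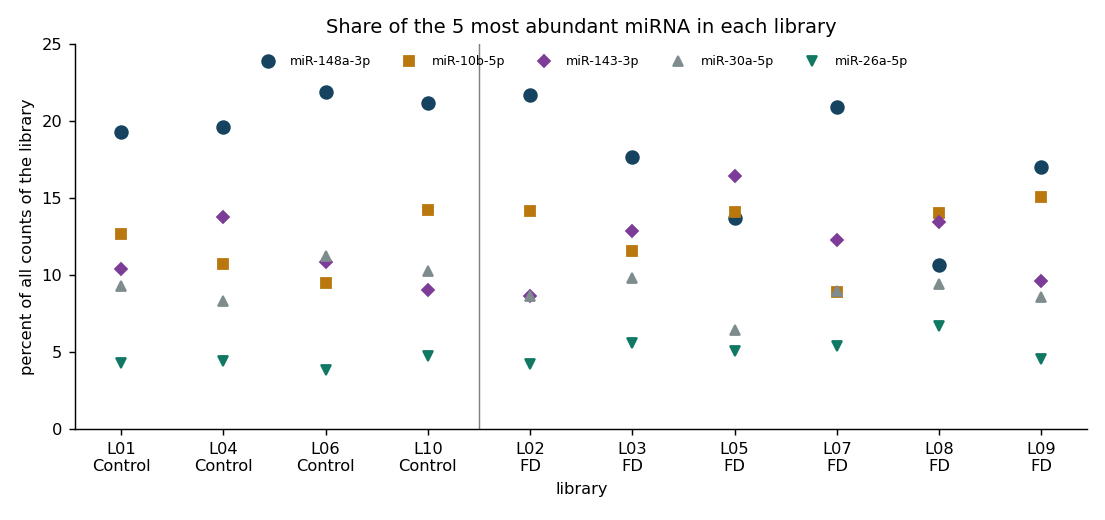
Share of all miRNA counts (percent, vertical axis) of the 5 most abundant miRNA in each of the 10 libraries (horizontal axis, 4 Control left of the line and 6 FD right of it), 1 point for each miRNA and library. miR-148a-3p is the highest point in 8 libraries and stands at rank 3 in L05 (13.7%) and L08 (10.6%).

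Within a library, miR-148a-3p was 1.46-fold above miR-10b-5p, the second most abundant miRNA, with a mean log2 ratio of 0.55 ± 0.518 (SD, n = 10). The ratio lay between 0.757-fold in L08 and 2.35-fold in L07, and miR-148a-3p was higher in 8 of 10 libraries (exact sign-flip permutation test, two-sided, p = 0.0117). Since miR-148a-3p was placed first on these same libraries, this p is not independent of the choice. With the 4 Control libraries alone the mean log2 ratio was 0.81 (exact p = 0.125, the smallest that 4 libraries allow), and with the 6 FD libraries alone 0.37 (exact p = 0.188).

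The other 3 members were much less abundant. After division by DESeq2 size factors, miR-148b-3p was 54th, miR-148a-5p 72nd and miR-148b-5p 196th of the 490 miRNA kept for testing. The mean normalized count over the 10 libraries was 1201930 for miR-148a-3p, 7216 for miR-148b-3p, 4714 for miR-148a-5p and 284 for miR-148b-5p. The minor strand of mir-148a was below the major strand of mir-148b in all 10 libraries, with 2660 to 5862 against 5985 to 8504 normalized counts. The nearest miRNA in the order of abundance were miR-199c-3p and miR-98-5p around miR-148b-3p, miR-429-3p and miR-320-3p around miR-148a-5p, and miR-29c-5p and miR-328-3p around miR-148b-5p. All 6 differed from their member by less than the SD of the log2 ratio over libraries, so these places are not firm. miR-148a-3p alone made up 98.6% to 99.1% of the counts of the family in each library.

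For miR-148a-3p the normalized count in the Control goats was 1220933 in L01, 1265872 in L04, 1379664 in L06 and 1527713 in L10. In the FD goats it was 1402563 in L02, 1150059 in L03, 914351 in L05, 1397121 in L07, 626225 in L08 and 1134781 in L09. Thus 4 of 6 FD goats lay below every Control goat, the other 2 lay within the Control range, and none lay above it. The mean of the Control goats was 1348550 ± 136857 (SD, n = 4). That of the FD goats was 1104180 ± 297444 (SD, n = 6), and it was 1199780 ± 205080 without L08.

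For miR-148a-5p the Control goats had 4779, 4706, 5862 and 4853 normalized counts in L01, L04, L06 and L10. The FD goats had 4983 in L02, 3603 in L03, 5124 in L05, 5152 in L07, 2660 in L08 and 5420 in L09. Here L03 and L08 lay below all Control goats and the other 4 FD goats within their range. L08 was therefore the lowest library for both strands of mir-148a, while L05, second lowest for the 3p strand, was among the higher libraries for the 5p strand.

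For miR-148b-3p the Control goats had 7868, 7130, 7100 and 8504 normalized counts in the same order. The FD goats had 7924 in L02, 7288 in L03, 6957 in L05, 7089 in L07, 6315 in L08 and 5985 in L09. Again 4 of 6 FD goats were below every Control goat, but L05 and L07 by little, and L08 was not the lowest. For miR-148b-5p the Control goats had 246.0, 384.6, 308.2 and 312.1 normalized counts. The FD goats had 276.4, 239.9, 267.1, 278.5, 235.1 and 295.1 from L02 to L09. This strand rested on 178 to 393 reads a library, which gives a counting error of 5.04% to 7.50%, and the 2 diets overlapped.

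**Figure D2:**
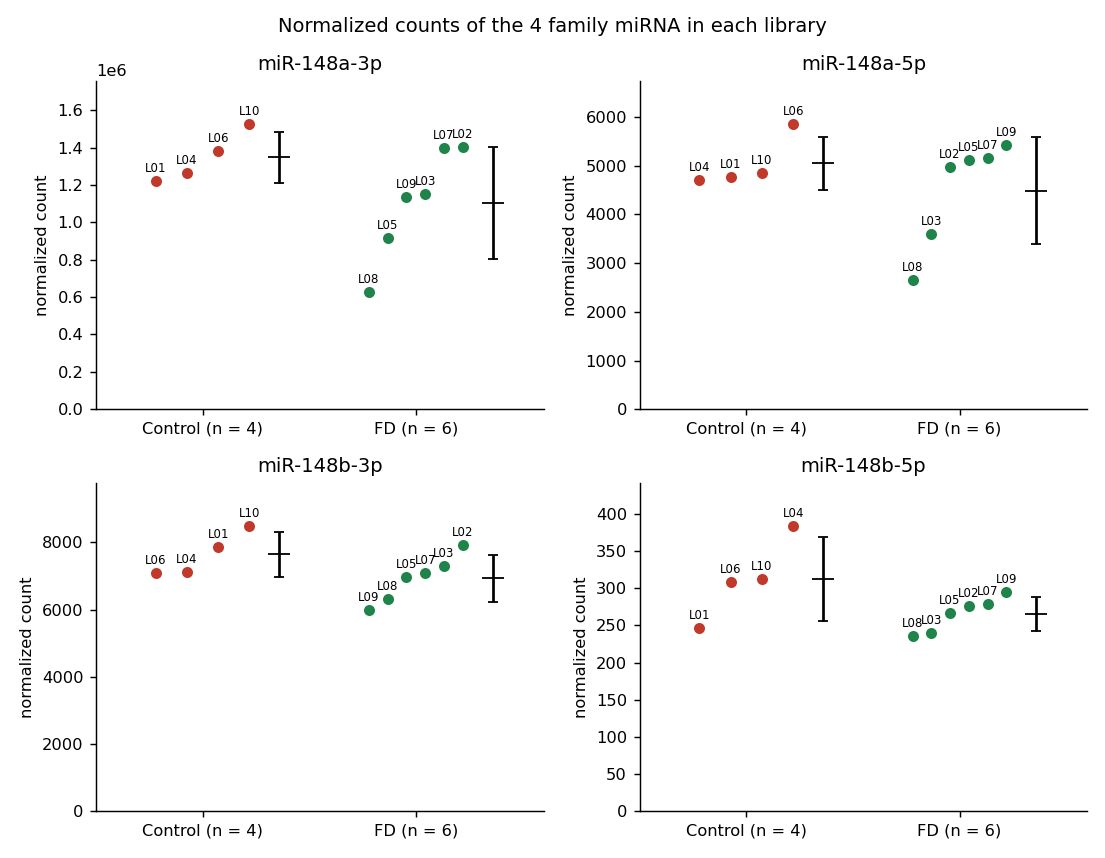
Normalized counts (vertical axes, from 0, 1 scale for each miRNA) of the 4 family miRNA in the 4 Control and 6 FD libraries, with 1 point for each library and the mean ± SD beside them. The lowest FD library is below the lowest Control library for each miRNA, from 626225 (L08) for miR-148a-3p to 235.1 (L08) for miR-148b-5p, and the 2 diets overlap for all 4.

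The main comparison of the study asked which miRNA of the gland change when lactating goats go without food for 48 h. None of the 4 family members passed the test (edgeR quasi-likelihood test over 490 miRNA, Benjamini-Hochberg adjusted p under 0.1). By this rule 0% of the 490 miRNA were called, and 15.7% had an unadjusted p under 0.05, none of the family among them. The log2 fold change of FD over Control was −0.31 (SE 0.191, adjusted p = 0.440) for miR-148a-3p, with a 95% interval from −0.72 to 0.11. That interval reaches from 0.606-fold to 1.08-fold of Control. It was −0.19 (SE 0.189, adjusted p = 0.604, 95% interval −0.60 to 0.22) for miR-148a-5p, where it was −0.088 without L06 and −0.124 without L03. For miR-148b-3p it was −0.16 (SE 0.110, adjusted p = 0.457, 95% interval −0.40 to 0.08), and for miR-148b-5p it was −0.25 (SE 0.156, adjusted p = 0.437, 95% interval −0.59 to 0.08), or −0.165 without L04. All 4 estimates were below 0, as were 50% of the 490 miRNA, and the 4 miRNA share goats and precursors. By DESeq2, with which 4.9% of the 490 miRNA were called, no member was called either. FD and Control libraries did not overlap for 2.24% of the 490 miRNA, and for none of the family.

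**Figure D3:**
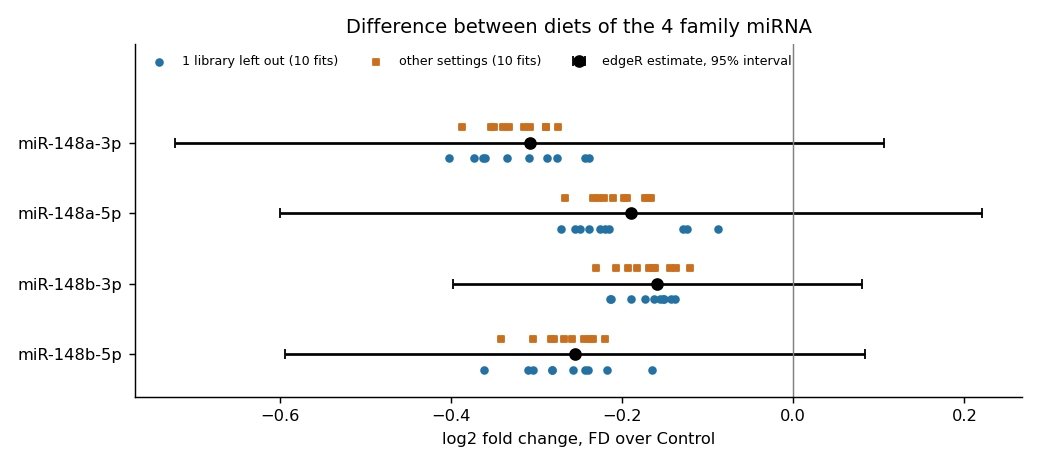
Log2 fold change of FD over Control (horizontal axis) for the 4 family miRNA: the edgeR estimate with its 95% interval (black), the estimates with 1 library left out (blue) and those under other settings (orange). All estimates lie below 0, between −0.40 and −0.09, and all 4 intervals cross 0.

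Counted as a share of the library, miR-148a-3p took 20.5% ± 1.27 (SD, n = 4) in Control goats. In FD goats it took 16.9% ± 4.23 (SD, n = 6). The difference of −3.55 percentage points did not pass an exact permutation test (two-sided, 210 splits, p = 0.152), and it was −2.29 points without L08. The coefficient of variation of miR-148a-3p was 10.1% in Control, against a median of 14.9% for the 123 miRNA with a mean above 1000 normalized counts. In FD it was 26.9%, against a median of 16.8%, which placed miR-148a-3p 20th of these 123. Without L08 it was 17.1%, against a median of 15.7%, and miR-148a-3p was 51st, so its wide spread in FD rested on that goat. The highest FD goat was 2.24-fold above the lowest, and the highest Control goat 1.25-fold. miR-148a-5p varied by 10.8% in Control and 24.6% in FD, whereas miR-148b-3p varied by 8.77% and 10.0%. Without L08 the FD values were 14.8% for miR-148a-5p and 9.94% for miR-148b-3p. The Control values also moved with 1 goat left out, to 1.53% for miR-148a-5p without L06 and to 6.35% for miR-148a-3p without L10. For miR-148b-5p the order was the other way, with 18.1% in Control and 8.83% in FD. The difference in spread between diets was not tested.

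The 2 precursors differed in how unequal their strands were. For mir-148a the 3p strand was on average 253-fold above the 5p strand, from 178-fold in L05 to 319-fold in L03. For mir-148b it was 25.5-fold above, from 18.5-fold in L04 to 31.9-fold in L01, so that the ranges of the 2 precursors were far apart in all 10 libraries. Among 114 precursors with both strands tested, the more abundant strand was by a median of 12.3-fold above the other, and mir-148a ranked 16th and mir-148b 41st for this ratio. The arm ratio was 267-fold in Control and 245-fold in FD for mir-148a (difference in log2 −0.13, exact permutation p = 0.486). With 1 library left out this difference ranged from −0.204 (without L03) to −0.036 (without L05), and it was −0.048 without L10 and −0.082 without L09. The arm ratio of mir-148b was 24.7-fold and 26.03-fold (0.08, exact permutation p = 0.662), and the difference was −0.059 without L04. Over libraries the log2 arm ratio had an SD of 0.259 for mir-148a and 0.248 for mir-148b, against a median of 0.324 over the 114 precursors.

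miR-148a-3p was 176-fold above miR-148b-3p in Control and 154-fold in FD (difference in log2 −0.19, exact permutation p = 0.400). Without L08 the difference was −0.061, and between medians it was −0.096. The ratio was lowest in L08, at 99.2-fold, and highest in L07, at 197-fold, both FD goats. After adjustment over these 3 ratios all p-values were 0.662. Since the 2 strands differ at 2 bases, counts of miR-148b-3p could include misassigned reads of miR-148a-3p. miR-148b-3p held 0.507% to 1.01% of the counts of miR-148a-3p, and such misassignment was not tested.

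**Figure D4:**
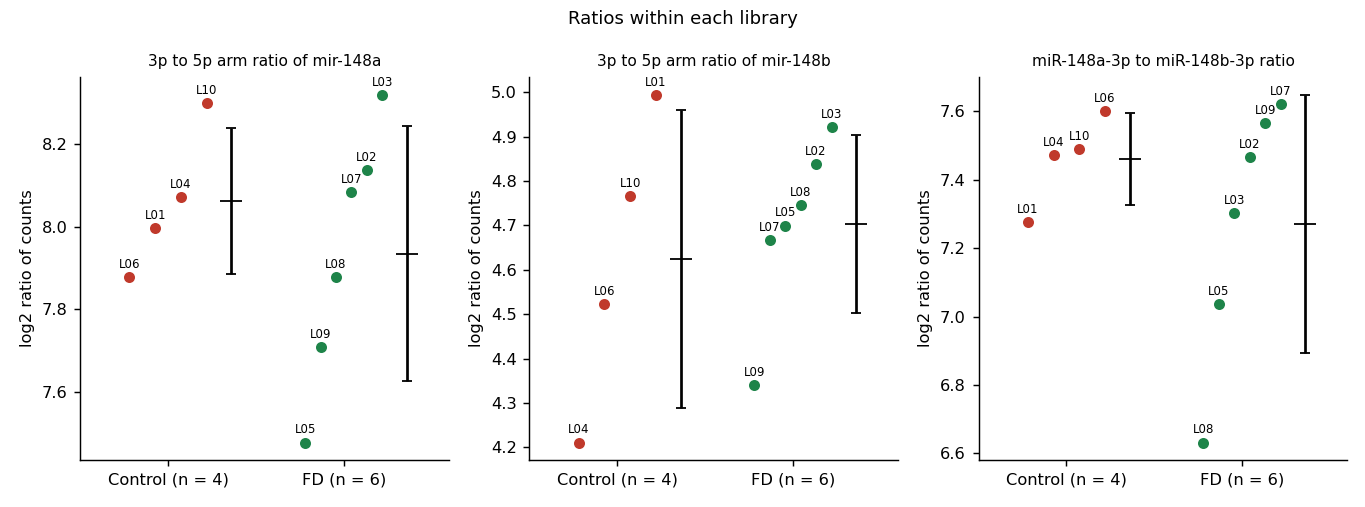
Log2 ratio of counts (vertical axes, not from 0) of the 3p over the 5p strand of mir-148a and of mir-148b and of miR-148a-3p over miR-148b-3p, in the 4 Control and 6 FD libraries, with the mean ± SD. The diets overlap in each panel; L05 is lowest for the mir-148a arms (178-fold) and L08 for miR-148a-3p over miR-148b-3p (99.2-fold).

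By correlation, the strands of 1 precursor did not follow each other closely from goat to goat. Yet their log2 arm ratios varied less than the median of the 114 precursors, with SD 0.259 and 0.248 against 0.324. Correlation between strands was not surveyed over all precursors, so whether low values are particular to the family was not tested. Over the 10 libraries, miR-148a-3p and miR-148a-5p had a Pearson r of 0.744 (permutation p = 0.0652) but a Spearman rho of 0.285 (permutation p = 0.430). Without L08 alone r was 0.153, without L05 alone it was 0.854, and with both left out, as the 2 libraries farthest from the median, it was 0.386, so the relation rested on L08. miR-148a-3p and miR-148b-3p had r = 0.630 (permutation p = 0.0630) and rho = 0.733 (permutation p = 0.0190), and r = 0.644 without the 2 farthest libraries. For miR-148b-3p and miR-148b-5p r was 0.101 (permutation p = 0.792) and rho 0.188. Of the 6 pairs in the family none passed after adjustment, the lowest adjusted p being 0.123 for Pearson's r and 0.114 for Spearman's rho. With the mean of each diet taken away, the lowest adjusted p was 0.352.

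The miRNA whose levels were most like those of each member, by Pearson r of log2 normalized counts over the 10 libraries and among 489 others, are given as a description with no test. For miR-148a-3p they were miR-190a-5p (r = 0.890), miR-200c-5p (0.880), miR-423-5p (0.852), miR-664-3p (0.830) and miR-6516-5p (0.819), while its own 5p strand was only 17th and miR-148b-3p 43rd. miR-200c belongs to the miR-200 family, which holds epithelial cells in their state. However, miR-200c-5p was low, with 33.5 to 70.4 normalized counts, and no other strand of that family was among the 5 nearest. L08 was the lowest library for both miR-190a-5p and miR-200c-5p, and without it r fell to 0.776 and 0.645. By Spearman's rho, which was 0.515 to 0.758 for these 5, none of them was among the 5 nearest. For miR-148a-5p the nearest were the predicted chr2_1805-3p (0.854), miR-376e-3p (0.829) and miR-33a-5p (0.819), where miR-33a sits in an intron of SREBF2, a regulator of sterol synthesis. For this last one r was 0.340 without L08.

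For miR-148b-3p the nearest was miR-331-3p (r = 0.908), followed by let-7a-3p (0.836) and miR-652-5p (0.810). For miR-148b-5p the nearest was miR-331-5p (r = 0.881), followed by miR-660-5p (0.812) and let-7b-3p (0.736). So each strand of mir-148b ran with the strand of the same side of mir-331, whereas the crossed pairs had r = 0.127 for miR-148b-3p with miR-331-5p and 0.169 for miR-148b-5p with miR-331-3p. The 2 strands of mir-331 had r = 0.242 with each other. Leaving out any 1 library kept r between 0.886 and 0.949 for the 3p pair and between 0.778 and 0.970 for the 5p pair. These pairs were picked as the highest of 489, and miR-331-5p was low, with 90.6 to 176 normalized counts.

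**Figure D5:**
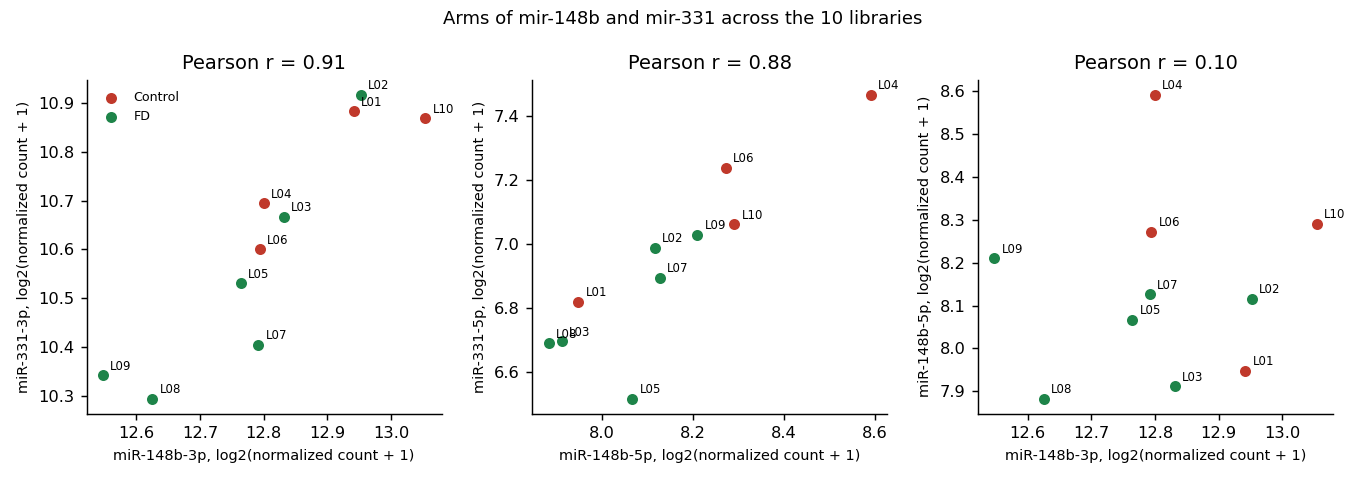
Log2(normalized count + 1) of miR-148b-3p and miR-331-3p, of miR-148b-5p and miR-331-5p, and of the 2 strands of mir-148b, with 1 point for each of the 10 libraries (Control red, FD green; axes not from 0). The same-side strands of the 2 precursors lie along a line (r = 0.91 and 0.88), while the 2 strands of mir-148b do not (r = 0.10).

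Markers of cell types were set beside the levels of the family. Of 13 miRNA named for mammary epithelium 10 were listed, of which 5 had a fold change below 0 and 5 above. By edgeR 0 were called, as for all 490 miRNA tested. A count of 0 calls therefore sets no list here apart. The median log2 fold change of the 10 was −0.05, against −0.0004 for all 490. Their summed share was lowest in L05 (3.01%) and L08 (3.11%), the libraries lowest in miR-148a-3p, and reached from 3.24% to 3.73% in the other 8. miR-141-3p was the most abundant of them, and miR-184-3p was at 0 in at least 1 library. Markers of blood-borne immune cells, led by miR-155-5p, took 0.129%, 0.147%, 0.201% and 0.135% of counts in L01, L04, L06 and L10. In the FD goats, in the order of L02 to L09, they took 0.129%, 0.173%, 0.235%, 0.213%, 0.318% and 0.141%, with L08 and L05 highest. Of this list 4 of 6 were listed, 3 above 0 and 1 below. The median log2 fold change of the 4 was 0.93, with 0 called by edgeR. The 1 below 0 was miR-155-5p, the most abundant, at −0.12 (SE 0.213, edgeR adjusted p = 0.781). The highest was miR-223-3p, a miRNA of neutrophils, with a log2 fold change of FD over Control of 1.153 (SE 0.342, edgeR adjusted p = 0.195). Of the stromal markers 5 of 6 were listed, 4 above 0 and 1 below, with a median log2 fold change of 0.39 and 0 called by edgeR. With miR-143-3p the most abundant, the stromal markers took 10.9%, 14.3%, 11.2% and 9.64% of counts in L01, L04, L06 and L10. In the FD goats, in the same order, they took 8.95%, 13.6%, 16.98%, 12.6%, 14.1% and 9.98%. Both endothelial and all 3 erythroid miRNA that were listed had a fold change above 0, as had the 3 tested of muscle. The median log2 fold changes of these 3 lists were 0.34, 0.33 and 0.08, with 0 called by edgeR. The muscle miRNA miR-206-3p was at 0 in at least 1 library. The part of cell makeup in the levels of miR-148a-3p was not tested.

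Of 25 miRNA known to be abundant in milk, miR-148a-3p among them, 23 were listed and tested. Their fold change was below 0 for 15 and above 0 for 8, with a median log2 fold change of −0.09. By edgeR 0 were called, as for all 490 miRNA tested. Beside miR-148a-3p the most abundant were miR-30a-5p (−0.22, SE 0.131), miR-26a-5p (0.23, SE 0.129) and miR-22-3p (−0.26, SE 0.107), with adjusted p of 0.431, 0.400 and 0.269. The summed share of the list was lowest in L05 (51.8%) and L08 (52.9%), but it contains miR-148a-3p itself. The other 22 miRNA took 37.9% (L02) to 42.2% (L08) of all counts, with 38.1% in L05, so L08 was then the highest library. Of the counts outside miR-148a-3p they took 44.2% in L05 and 47.2% in L08, and 48.1% to 52.9% in the other 8 libraries, so the place of L08 depends on the denominator.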

How the data were processed

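RNA was extracted from frozen mammary tissue, and TruSeq small RNA libraries were sequenced on an Illumina HiSeq. The authors trimmed adapters with Cutadapt, aligned reads to the goat genome CHIR_1.0 and counted known (miRBase) and predicted miRNA with miRDeep2. The deposited values used are whole-number read counts per miRNA. The deposited normalized columns were not used, since their scale is not stated. Here, the 490 of 1804 miRNA with a highest normalized count (DESeq2 1.42.0 size factors) above 28 were tested with edgeR 4.0.16 (TMM, quasi-likelihood, Benjamini-Hochberg, threshold 0.1) in R 4.3.3. Ratios and shares were tested by exact permutation, with 0.5 added to each count in ratios, and correlations with 100000 permutations of log2(normalized count + 1). Replicates are separate goats; all same-diet pairs differed beyond sampling noise. The edgeR test was checked on simulated data, where it recovered 39% of 1.5-fold and 90% of 2-fold changes. Changes smaller than 1.5-fold were not simulated. DESeq2, limma-voom, other scalings, filters and left-out libraries were alternatives. Named miRNA are the members, their 5 (miR-148a-3p) or 3 nearest in pattern, their neighbours in abundance, the 5 most abundant miRNA, and up to 4 most abundant of each list; the 4 miRNA with a shifted seed match and the markers at 0 were named outside this rule, after their values were seen. Members and lists were chosen with earlier results of these data known, and the mir-331 pairs, the spread with 1 goat left out and the milk list without miR-148a-3p were added after seeing the data.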

Additional observations from a re-analysis of the deposited data

Results flagged for a closer look

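The normalized count of miR-148a-5p in the Control library L06, 5861.9, lay far above the other 3 Control libraries (4706.3 to 4852.8) for a group of 4. Chance sets apart about 1 in 20 groups in this way, and several measures were screened in both diets.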

How the results depend on the processing

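The log2 fold changes of the 4 family miRNA kept their sign and stayed without a call in all 20 alternatives each, from −0.40 to −0.24 for miR-148a-3p (adjusted p 0.273 to 0.616), −0.27 to −0.088 for miR-148a-5p, −0.23 to −0.12 for miR-148b-3p and −0.36 to −0.17 for miR-148b-5p. The number of miRNA called changed from 0 with edgeR to 24 with DESeq2, 5 with no filter and 1 with known miRNA alone, and was 0 to 1 with 1 library left out (1 without L02). The log2 difference in the mir-148b arm ratio ranged from −0.059 (without L04) to 0.202 with 1 library left out. Pearson's r with 1 library left out ranged from 0.153 to 0.854 for miR-148a-3p and miR-148a-5p, 0.540 to 0.767 for miR-148a-3p and miR-148b-3p (0.666 without logarithm, 0.404 on CPM, 0.522 as deviations from each diet), 0.331 to 0.662 for miR-148a-3p and miR-148b-5p (0.354 on CPM, 0.367 as deviations from each diet, 0.295 without the 2 farthest libraries), −0.272 to 0.494 for miR-148a-5p and miR-148b-3p (−0.0477 on CPM, −0.534 without the 2 farthest libraries), 0.371 to 0.771 for miR-148a-5p and miR-148b-5p (−0.0846 without the 2 farthest), and −0.102 to 0.221 for miR-148b-3p and miR-148b-5p (−0.0842 on CPM, −0.231 as deviations from each diet). The log2 ratio of miR-148a-3p to miR-10b-5p, chosen on these libraries and 0.545 over all of them, did not pass with Control (0.814) or FD (0.366) libraries alone. By Spearman's rho 0 of the 5 miRNA nearest to miR-148a-3p, and 1 of the 3 each for miR-148a-5p and miR-148b-3p, stayed among the nearest (on CPM, 1 for miR-148a-5p), while miR-331-3p and miR-331-5p stayed under all 3 alternatives. The causes of these changes were not tested. No paired analysis was possible because Control and FD goats are different animals and the labels give no numbers that pair them. The counting error of a library was at most 0.113% for miR-148a-3p, 1.70% for miR-148a-5p, 1.40% for miR-148b-3p and 7.50% for miR-148b-5p. Each goat is 1 library, so spread between animals and between library preparations cannot be told apart.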
